A study of Mus musculus with 12 samples.

Results

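The 7 genes described here are Lrrk2, Pink1, Park7, Vps35, Atp13a2, Fbxo7 and Htra2, mouse counterparts of human genes in which variants have been linked to inherited or familial Parkinson disease. They were named without a rule on measured values, though with earlier results of these data known, and all 7 were present among the 21125 genes of the deposited table, in 49 of its 67355 rows. RNA-seq was run on microglia, the resident macrophages of the brain. The cells were isolated from mouse brain tissue labelled midbrain and purified on a flow cytometer. The control animals (WT) had the genotype Ppargc1a FF, and the deficient animals (KO) had the genotype Ppargc1a FF CreER, so both carried the conditional Ppargc1a allele. Animals of either genotype received MPTP, a toxin of dopaminergic neurons, or PBS, and every sample was labelled as taken 6 weeks after tamoxifen. The labels give 3 samples for each of the 4 groups. They name neither the promoter that drives CreER nor the sex or age of the animals, and nothing in them ties a sample to its own animal. The p-values therefore describe the spread among these profiles and may reflect technical variation alone.

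The table holds fewer separate measurements than columns. In each group the third column equalled 0.1 plus 0.99 times the mean of the other two, WT MPTP 2 equalled 1.02 times WT MPTP 1, and KO MPTP 1 equalled 1.02 times KO PBS 2, to rounding and with few exceptions. Of 67354 rows compared, 1 in WT PBS 3, 28 in WT MPTP 2 and 46 in KO MPTP 1 departed from these relations, in 42 genes. All 49 rows of the 7 genes followed these relations to rounding in all 6 computed columns. The values below are therefore those of the 6 separate profiles, namely numbers 1 and 2 of WT PBS, number 1 of WT MPTP, numbers 1 and 2 of KO PBS and number 2 of KO MPTP, and the treatment of KO PBS 2, whose values stand under both treatments in all but those 46 rows, cannot be told from the table. Ppargc1a, the targeted gene, was between 2.72 and 6.21 FPKM (fragments per kilobase of transcript, scaled to the mapped fragments of the library) in the 3 WT profiles and between 0.12 and 0.42 FPKM in the 3 KO profiles. It was among the 42 genes off the relations, with 0.12 FPKM in KO PBS 2 and 0.22 in KO MPTP 1, and 5.6 FPKM in WT PBS 3, below both other WT PBS columns. The values of a profile summed to between 388861 and 425554 FPKM, lowest in KO PBS 1 and highest in WT MPTP 1. The 10 homeostatic microglia markers had a median of 0.122 FPKM, and 6 were under 1 FPKM, P2ry12 (0.19 FPKM), Cx3cr1 (0.05) and Sall1 (0) among them. The 8 general macrophage markers measured had a median of 215 FPKM, with Csf1r at 117 and Cd68 at 479. Their sum was between 2623 and 2705 FPKM in WT and between 2353 and 2565 FPKM in KO, without overlap. Lyz2, at 1095 FPKM, was the largest part of this sum. Of 10634 single genes that reached 1 FPKM in 3 or more profiles, 8.01% did not overlap between the genotypes. The medians of the marker lists of neurons, dopaminergic neurons, astrocytes, oligodendrocytes and their precursors, vessel cells, lymphocytes, erythroid cells and granulocytes were between 0.002 and 0.525 FPKM, a range that holds the median of the homeostatic microglia list. These medians rest on the listed markers that were present, from 2 of 5 for erythroid cells and 3 of 9 for neurons to 7 of 8 for lymphocytes. Single genes of these lists were higher, among them Flt1 of the vessel list (86.9 FPKM), Aldoc of the astrocyte list (81.7), Cnp of the oligodendrocyte list (7.57) and S100a8 of the granulocyte list (4.52). In bulk RNA, fewer cells of a type and less RNA per cell cannot be told apart.

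The 7 genes fall into 3 groups by the known functions of their products. PINK1 is a kinase that accumulates on damaged mitochondria and starts their marking with ubiquitin for degradation by autophagy (mitophagy), and FBXO7 is a substrate adaptor of SCF ubiquitin ligases that has been placed in the same pathway. DJ-1, encoded by Park7, is a redox-sensitive protein that protects cells from oxidative stress, and HTRA2 is a serine protease of the mitochondrial intermembrane space. VPS35 is the core subunit of retromer, which returns cargo from endosomes, LRRK2 is a kinase that phosphorylates Rab GTPases on endolysosomal membranes, and ATP13A2 is a lysosomal P5-type ATPase. Ppargc1a encodes PGC-1alpha, a coactivator that raises the output of nuclear genes for mitochondria, in part by docking on the transcription factors NRF1 and the estrogen-related receptors (ERR).

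The available promoters of the 7 genes were searched for the motifs of these partners and of other regulators named below. This search was chosen after values had been seen. The RefSeq promoter table (GRCm38.p6) held 6 promoters for 5 of the genes, each running from 250 bases before a start site to 50 after it. Those of Pink1, Park7 and 1 of the 2 of Fbxo7 held the NRF1 motif, GCGC followed by any 2 bases and GCGC, which reads the same on both strands. The same motif was found in 6.23% of the 32851 promoters of 300 bases in that table. The promoters of the 5 genes were between 58.0% and 70.3% G and C, above the median of 52.7% over all promoters. The ERR element AAGGTCA, searched on both strands, was in none of the 6 and in 4.72% of all promoters. The E-box CACGTG, bound by TFEB, a regulator of lysosomal genes, was in 1 of them, the second Fbxo7 promoter, and in 7.15% of all. Elements of ATF4 (TGANGCAA) and NRF2 (TGACNNNGC), regulators of stress responses searched on both strands, were in none of the 6, against 3.69% and 12.4% of all promoters. No search motif overlapped another in these promoters. The 3 promoters with an NRF1 motif are shown from 150 bases before the start site up to the base before it, 5′ to 3′, with the motif in capitals. They lie at chr4:138326297-138326446 on the minus strand for Pink1, at chr4:150909922-150910071 on the minus strand for Park7 and at chr10:86021779-86021928 on the plus strand for Fbxo7.
Pink1: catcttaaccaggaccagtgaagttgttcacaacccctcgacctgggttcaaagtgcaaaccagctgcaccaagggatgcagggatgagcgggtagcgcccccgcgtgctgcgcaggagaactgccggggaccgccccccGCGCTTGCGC
Park7: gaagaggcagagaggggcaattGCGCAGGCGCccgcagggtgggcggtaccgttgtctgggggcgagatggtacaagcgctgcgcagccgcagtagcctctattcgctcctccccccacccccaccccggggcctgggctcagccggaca
Fbxo7: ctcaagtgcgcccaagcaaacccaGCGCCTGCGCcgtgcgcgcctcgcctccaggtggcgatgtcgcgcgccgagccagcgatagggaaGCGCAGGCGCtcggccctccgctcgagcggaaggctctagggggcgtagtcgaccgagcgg
The motif starts 10 bases upstream of the start site in Pink1 and 128 bases upstream in Park7, and the first Fbxo7 promoter holds it at 126 and 61 bases upstream. A match describes these letters and not binding, and the expression of these genes in KO is given below.

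The genes were expressed at very different levels, in the same order in nearly every profile. Vps35 (101.1 ± 3.62 FPKM, mean ± SD over 6 profiles) and Park7 (93.4 ± 4.53) were the highest and lay at percentiles 97.5 and 97.3 of the genes in the table. Atp13a2 followed at 59.3 ± 3.16 FPKM and Htra2 at 27.8 ± 1.32, and Pink1 at 9.37 ± 0.54, Fbxo7 at 4.94 ± 0.18 and Lrrk2 at 2.83 ± 0.19 FPKM lay between percentiles 57.2 and 73.6. The levels of Vps35 and Park7 overlapped between profiles, with Vps35 the higher in 5 of 6, and every other gene was above the next one in all 6 profiles without overlap, by between 1.58 and 2.97 times. The mitophagy genes Pink1 and Fbxo7 were thus among the 3 lowest of the 7.

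**Figure D1:**
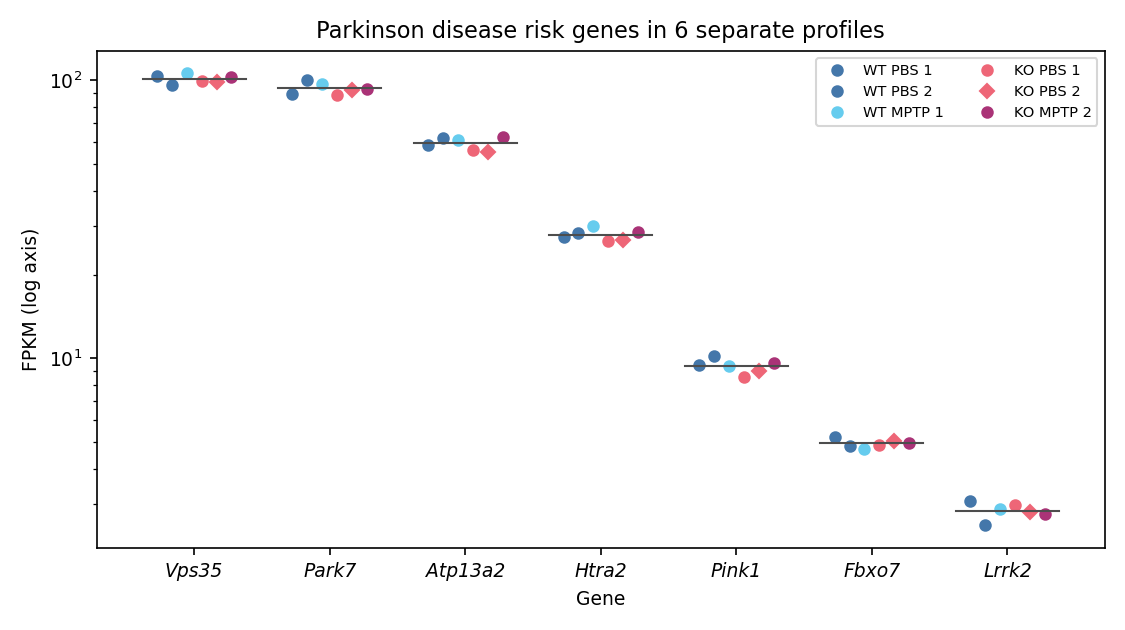
FPKM (log axis) of the 7 Parkinson disease risk genes in the 6 separate profiles, coloured by group, with the mean of the 6 as a line; the diamond is KO PBS 2, whose treatment cannot be told from the table. The genes range from Vps35 at 101.1 FPKM to Lrrk2 at 2.83 FPKM, while the profiles of a gene lie close together.

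Within a gene the profiles were close. The highest profile exceeded the lowest by 1.10 times for Vps35, 1.11 for Fbxo7, 1.13 for Park7, 1.14 for Atp13a2 and Htra2, 1.18 for Pink1 and 1.22 for Lrrk2, the gene with the lowest level. The coefficient of variation over the 6 profiles was between 3.58% (Vps35) and 6.73% (Lrrk2), against a median of 5.59% over the 10634 genes tested. Among genes within 2-fold of its level, Fbxo7 lay at percentile 9.81 of the coefficients of variation, Vps35 at 16.5 and Atp13a2 at 69.8.

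Deficiency of Ppargc1a was compared over all 6 separate profiles, 3 WT against 3 KO, because KO PBS 2 is a KO profile under either of its labels. Both genotypes mix PBS and MPTP profiles, and this fit had no term for treatment. With the treatment of KO PBS 2 unknown, the balance of treatments between the genotypes is unknown too. None of the 7 genes passed the test between genotypes (limma with Benjamini-Hochberg adjustment over 10634 genes, 0 of 7 with an adjusted p under 0.05 and 0 with an unadjusted p under 0.05), where 0.0376% of all genes tested, 4 genes, were called. The WT and KO profiles overlapped for all 7 genes, whereas they did not overlap for 8.01% of the genes tested. Differences on the log2(FPKM + 1) scale ran from −0.08 (Pink1) to 0.01 (Lrrk2), with a median of −0.06 against −0.03 over all genes. Of the 7, 2 were above 0, and 3 were with TMM or quantile rescaling. The summed macrophage markers were lower in each KO profile than in each WT profile, which held for none of the 7 genes. The part of these markers in the differences of the 7 genes was not tested. The 95% intervals of the 7 genes together ran from −0.21 (Pink1) to 0.16 (Lrrk2).

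Of the mitophagy genes, Pink1 was 9.47 and 10.2 FPKM in the WT PBS pair (1, then 2), 9.35 in WT MPTP 1, 8.60 and 9.01 in the KO PBS pair and 9.62 in KO MPTP 2. The PBS-labelled KO profiles were below all 3 WT profiles, and KO MPTP 2 was above 2 of them. The KO mean was 9.08 ± 0.51 FPKM against 9.67 ± 0.45 in WT (SD, n = 3 per genotype; two-sided exact permutation p = 0.30, computed on log2 values, where 0.10 is the smallest that 3 against 3 allows). Fbxo7 was 5.23 and 4.82 FPKM in the WT PBS pair, 4.72 in WT MPTP 1, 4.86 and 5.04 in the KO PBS pair and 4.98 in KO MPTP 2. The 3 KO profiles lay inside the range of the WT profiles, with means of 4.96 ± 0.09 in KO and 4.92 ± 0.27 in WT (SD, n = 3 per genotype; two-sided exact permutation p = 0.90).

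Of the genes of mitochondrial stress, Park7 was 89.0 and 100.3 FPKM in the WT PBS pair, 97.0 in WT MPTP 1, 88.7 and 92.3 in the KO PBS pair and 93.3 in KO MPTP 2. The WT PBS pair spanned nearly the whole range of the 6. Its KO mean of 91.5 ± 2.42 FPKM against 95.4 ± 5.80 in WT did not pass (SD, n = 3 per genotype; two-sided exact permutation p = 0.30). Htra2 was 27.3 and 28.2 FPKM in the WT PBS pair, 30.0 in WT MPTP 1, 26.4 and 26.7 in the KO PBS pair and 28.5 in KO MPTP 2. Within each genotype its highest value was in the MPTP profile, and its KO and WT ranges overlapped (two-sided exact permutation p = 0.30 for 3 against 3). Htra2 and the sum of all values were both lowest in KO PBS 1 and highest in WT MPTP 1, and the part of the sums in the Htra2 values was not tested.

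Of the endolysosomal genes, Vps35 was 104 and 96.3 FPKM in the WT PBS pair, 106 in WT MPTP 1, 99.3 and 98.8 in the KO PBS pair and 103 in KO MPTP 2. All 3 KO profiles lay between the lowest and the highest WT profile (two-sided exact permutation p = 0.60, n = 3 each). Lrrk2 was 3.06 and 2.51 FPKM in the WT PBS pair, 2.87 in WT MPTP 1, 2.96 and 2.80 in the KO PBS pair and 2.75 in KO MPTP 2. Its lowest and its highest profile were both WT PBS, and the means of 2.81 ± 0.28 in WT and 2.84 ± 0.11 in KO were nearly equal (SD, n = 3 per genotype; two-sided exact permutation p = 1). Atp13a2 was 58.6 and 62.1 FPKM in the WT PBS pair, 61.0 in WT MPTP 1, 56.2 and 55.0 in the KO PBS pair and 62.6 in KO MPTP 2. The PBS-labelled KO profiles were below every WT profile, as they were for Pink1 and Htra2. The share of all genes tested that show this order was not counted, so it cannot be called particular to these genes. For Atp13a2, KO MPTP 2 was the highest of the 6 (two-sided exact permutation p = 0.40 for KO against WT, n = 3 each). The sums of all values were also lower in the PBS-labelled KO profiles, 388861 and 389882 FPKM, than the lowest WT sum of 401732.5 FPKM. The part of the sums in the values of these genes was not tested.

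The 5 other comparisons used 5 profiles, with KO PBS 2 left out, so that WT PBS had 2 profiles and each of the other groups had 1. The spread in this fit comes from the WT PBS pair, moderated across genes, and the single profiles are assumed to vary like it. In KO PBS against WT PBS, none of the 7 genes was called (limma, 0 with an unadjusted p under 0.05; 0.226% of all genes tested were called). Pink1 and Atp13a2 had the lowest values, −0.17 ± 0.09 and −0.10 ± 0.08 (log2 scale, SE), and Lrrk2 was the 1 gene above 0, at 0.07. The median of the 7 was −0.07 against −0.06 over all genes, and with TMM or quantile rescaling 3 of the 7 were above 0 and the median of the 7 was −0.01. In KO MPTP against WT MPTP none was called either (0 with an unadjusted p under 0.05), against 0.103% of all genes. The values ran from −0.07 for Htra2 to 0.06 for Fbxo7, with 3 of the 7 above 0. The median of the 7 was −0.05 against −0.01 over all genes. The count above 0 depended on the fit, with 1 of the 7 when KO PBS 2 was placed as KO MPTP and 4 with a term for replicate number.

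The response to MPTP was compared within each genotype. In WT, none of the 7 genes was called (limma, 0 with an unadjusted p under 0.05; 0.254% of all genes tested were called), and values ran from −0.07 ± 0.10 for Fbxo7 to 0.11 ± 0.08 for Htra2 (log2 scale, SE). The Htra2 value compares 30.0 FPKM after MPTP with the PBS values of 27.3 and 28.2. In KO, none was called (0 with an unadjusted p under 0.05; 0.292% of all genes), and 6 of the 7 were above 0, Lrrk2 being the exception at −0.08. The highest were Atp13a2 at 0.15 ± 0.09 and Pink1 at 0.15 ± 0.11. The median of the 7 was 0.07 in KO against 0.09 over all genes tested, and with TMM rescaling of the profiles, which brought the median of all genes to −0.004, 3 of the 7 were above 0 and the median of the 7 was −0.04. The comparisons of MPTP in KO and of KO under PBS share KO PBS 1, and those of MPTP in WT and of KO under PBS share the WT PBS pair.

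Whether the MPTP response differed between genotypes was tested by the interaction. No gene of the 7 was called (limma, adjusted p = 1 for each, 0 with an unadjusted p under 0.05; 0.0752% of all genes were called). The interaction ran from −0.11 ± 0.17 for Lrrk2 to 0.21 ± 0.14 for Pink1 on the log2 scale (SE). Pink1 was lower in WT MPTP 1 than in both WT PBS profiles and higher in KO MPTP 2 than in both PBS-labelled KO profiles. The 95% intervals of the 7 together ran from −0.49 to 0.53.

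**Figure D2:**
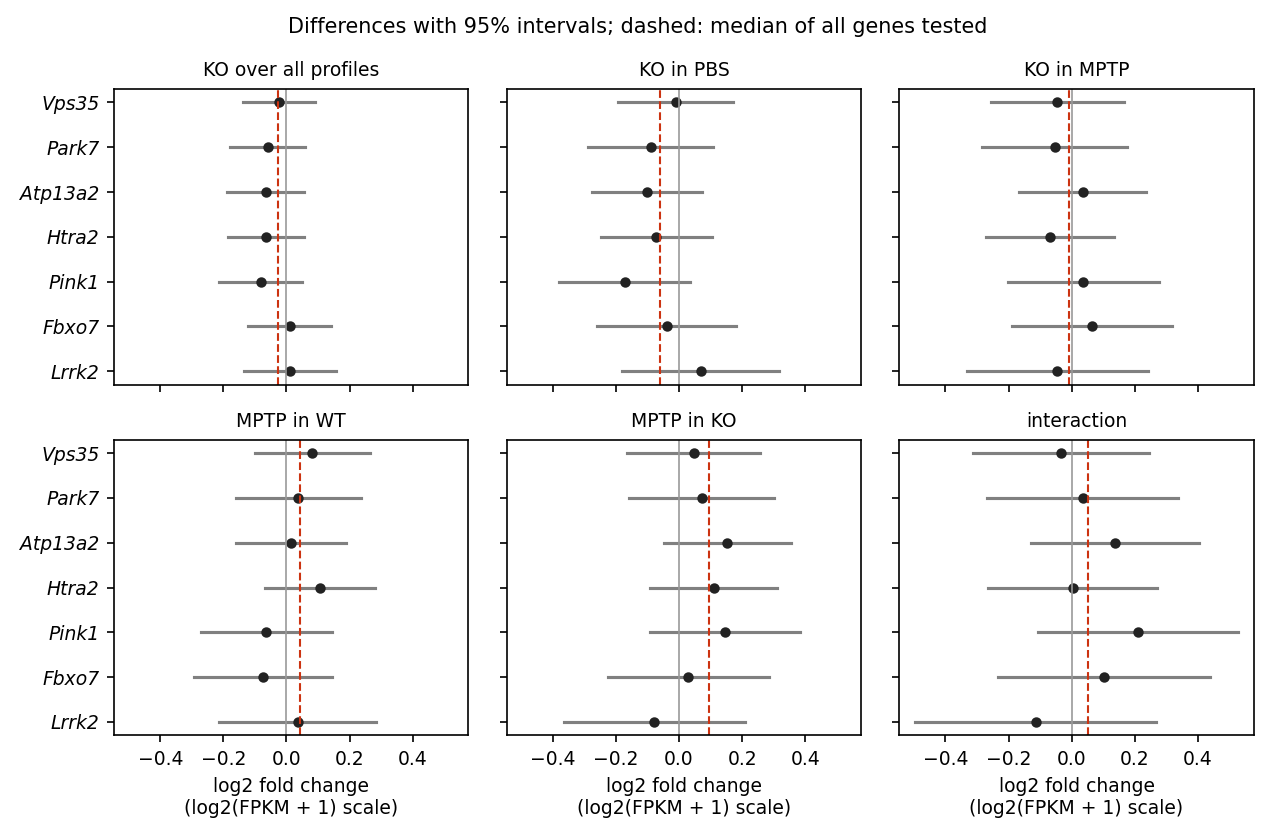
Log2 fold changes of the 7 genes (points) with 95% intervals (lines) in 6 comparisons, on the log2(FPKM + 1) scale, with the median of the 10634 genes tested as a dashed line. Every interval of the 7 genes holds 0 in each of the 6 comparisons, and the intervals are widest for the interaction.

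The rows behind each gene show where its value lies. The authors' table splits a symbol into numbered rows, whose definition is not given in the sources used here. A single row carried 99.4% of Vps35, 96.7% of Pink1 and 89.0% of Lrrk2. Park7 was carried by the rows Park7_3 (82.0%) and Park7_7 (14.2%), Htra2 by Htra2_9 (68.4%) among 11 rows, and Atp13a2 was divided between Atp13a2_2 (53.5%) and Atp13a2_8 (42.5%).

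Relative to their level, the rows of Park7 and Htra2 varied more than their sums. This was not particular to them. Fbxo7_3 was at 2.91 ± 0.36 FPKM (mean ± SD over the separate profiles) beside 4.94 ± 0.18 for Fbxo7. Atp13a2_8 was at 25.2 ± 2.48 FPKM beside 59.3 ± 3.16 for Atp13a2. Park7_7 was 9.89 and 11.1 FPKM in the WT PBS pair, 12.98 in WT MPTP 1, 10.7 and 13.9 in the KO PBS pair and 21.0 in KO MPTP 2. Park7_3 was 75.8 and 86.0 FPKM in the WT PBS pair, 80.5 in WT MPTP 1, 75.7 and 74.8 in the KO PBS pair and 67.0 in KO MPTP 2. In KO MPTP 2 the first was thus at its highest and the second at its lowest, and Park7_7 held 22.5% of the gene there against 11.0% to 15.1% in the 5 other profiles, while the sum, 93.3 FPKM, was near the mean. Htra2_3 was between 1.83 and 2.43 FPKM in 5 profiles and 0.63 FPKM in KO MPTP 2, whereas Htra2 as a whole was 28.5 FPKM there. When all 19093 rows of at least 1 FPKM in at least 3 profiles were fitted in the same way, 0% of rows were called in any of the 6 comparisons. Of the 14 rows of the 7 genes fitted, 2 had an unadjusted p under 0.05 in MPTP against PBS in KO, in KO against WT under MPTP and in the interaction, and 0 in the 3 other comparisons. Over all rows 7.37%, 5.31% and 5.54% had such a p in the first 3 of these. The log2 difference of Park7_7 between KO MPTP and KO PBS was 0.91 ± 0.12 (SE; limma, unadjusted p = 0.00278, adjusted p = 0.61), and that of Htra2_3 was −1.07 ± 0.17 (unadjusted p = 0.0044, adjusted p = 0.61). These rows were picked after their values were seen, and both rest on the single profile KO MPTP 2, since the column KO MPTP 1 repeats KO PBS 2.

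**Figure D3:**
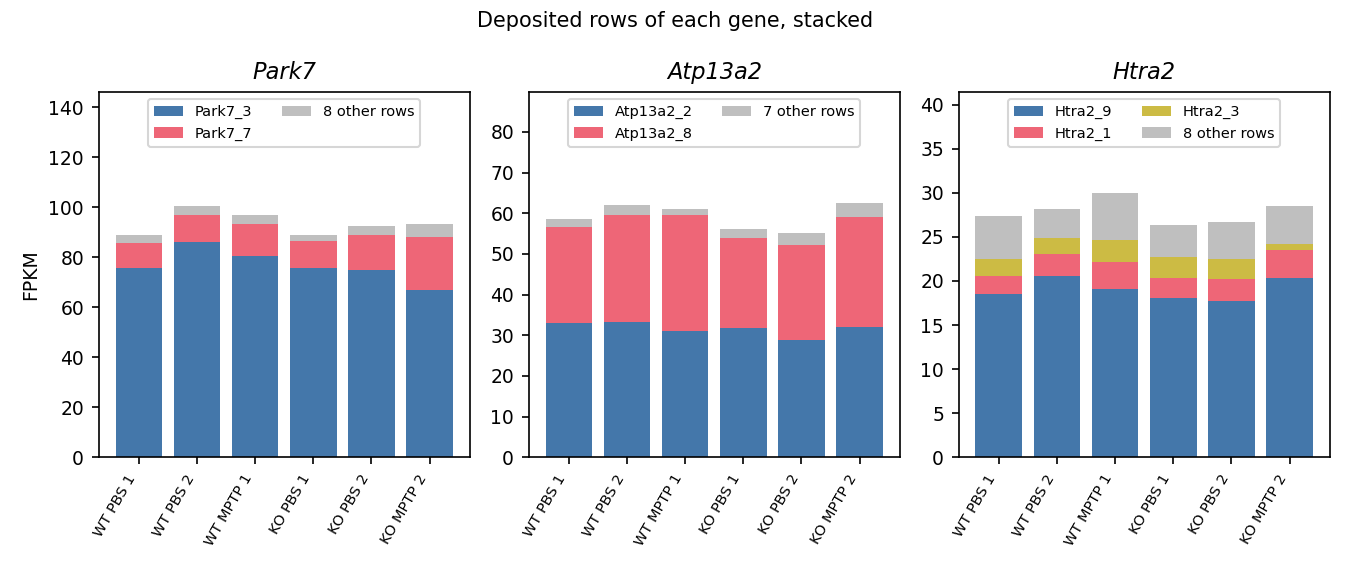
FPKM of the deposited rows of Park7, Atp13a2 and Htra2, stacked for each of the 6 separate profiles, with the remaining rows of the gene in grey. In KO MPTP 2 the row Park7_7 reaches 21.0 FPKM and Htra2_3 drops to 0.63 FPKM, while the heights of the whole bars stay close to those of the other profiles.

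The computed columns shift the lowly expressed genes in one direction. The constant of 0.1 FPKM enters each row, so a gene gains that amount for every row it has, which comes to 0.7 FPKM for the 7 rows of Fbxo7 and 0.5 FPKM for the 5 of Lrrk2. The column WT PBS 3 gave Lrrk2 at 3.26 FPKM, although WT PBS 1 and 2 held 3.06 and 2.51. Over the 4 groups, column 3 was between 1.16 and 1.17 times the mean of the other two for Lrrk2 and between 1.13 and 1.14 for Fbxo7, and 0.994 for Vps35. Column 3 was above both other columns in all 4 groups for Lrrk2, Fbxo7 and Htra2. When the 12 columns were taken as 12 libraries, some of the 7 genes were called, with small differences. Vps35 (0.10, adjusted p = 0.0173) and Htra2 (0.12, adjusted p = 0.00891) were higher with MPTP in WT, Pink1 (−0.14, adjusted p = 0.0214) and Atp13a2 (−0.12, adjusted p = 0.0444) were lower in KO under PBS, and Htra2 (−0.11, adjusted p = 0.0154) was lower in KO under MPTP (limma, log2 scale). In that fit 2149 of 10634 genes were called for MPTP in WT, against 27 with separate profiles, and computed columns stood as replicates in it.

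**Figure D4:**
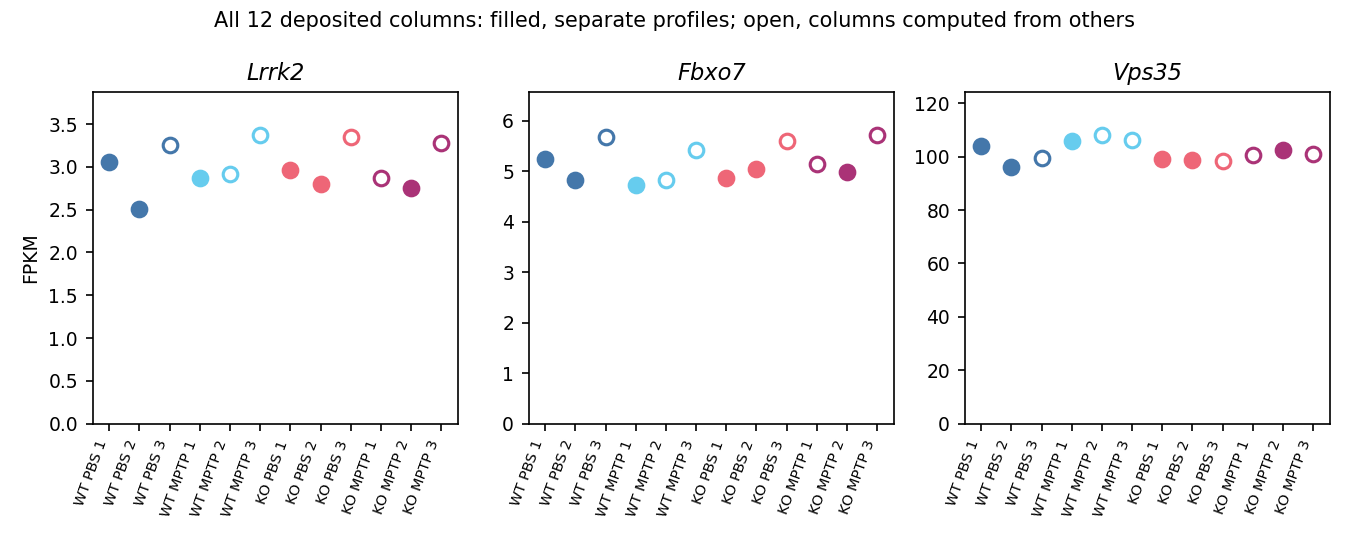
FPKM of Lrrk2, Fbxo7 and Vps35 in all 12 deposited columns, filled for the 6 separate profiles and open for the 6 columns computed from others, coloured by group. The open points of column 3 lie above the filled ones of their group for Lrrk2, at 3.26 FPKM in WT PBS 3 against 3.06 and 2.51 in WT PBS 1 and 2, and close to them for Vps35.

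The other genes of these pathways were counted from lists. Of 8 lists with 138 genes tested, none was called in any of the 6 comparisons (limma, adjusted over all 10634 genes), and between 0 and 4 had an unadjusted p under 0.05, where between 2.65% and 9.23% of all genes tested had one. The counts above 0 that follow were made without rescaling, where the median over all genes was itself below 0. With TMM rescaling that median was 0.004, and such counts were not made after rescaling or for all genes. In KO against WT over all profiles, 3 of 30 tested partners of the PINK1 pathway were above 0, with a median of −0.05 on the log2 scale against −0.03 over all genes. The 2 with the highest levels were Tomm20, a receptor of the mitochondrial import pore (183 FPKM, difference −0.07 ± 0.06, SE), and Vdac2, an outer membrane channel (170.5 FPKM, −0.05 ± 0.05). Of 18 tested partners of retromer, 2 were above 0, with a median of −0.04. The highest were the sorting nexin Snx5 (155 FPKM, −0.08) and the late endosomal GTPase Rab7 (132 FPKM, −0.04). Of 24 tested Rab substrates, relatives and partners of LRRK2, 8 were above 0, with a median of −0.02. The highest were the 14-3-3 genes Ywhaz (146 FPKM, 0.01) and Ywhae (131 FPKM, −0.01).

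Of 20 tested mitochondrial proteases, relatives of HTRA2 and partners of inhibitors of apoptosis, 2 were above 0, with a median of −0.05, and the highest were Hax1 (79.8 FPKM, −0.06) and the matrix protease gene Lonp1 (63.3 FPKM, −0.06). Of 10 SCF, F-box and proteasome partners of FBXO7, 1 was above 0 with a median of −0.04, and the highest were Nedd8 (63.9 FPKM), which encodes the modifier that activates cullins, and the SCF subunit Skp1a (59.9 FPKM). Of 3 tested P5-type ATPases, 2 were above 0 with a median of 0.01. Atp13a3 (19.3 FPKM) and Atp13a1 (14.1 FPKM), relatives of Atp13a2, differed by 0.05 and 0.01, Atp13a4 (0.965 FPKM) differed by −0.10, and Atp13a2 stood above both at 59.3 FPKM. Of 8 tested relatives and antioxidant partners of DJ-1, 1 was above 0 with a median of −0.05, and the highest were the thioredoxin gene Txn1 (150.1 FPKM, −0.08) and the peroxiredoxin gene Prdx2 (125 FPKM, −0.10). Of 25 tested further genes linked to Parkinson disease, 7 were above 0 with a median of −0.06. Gpnmb, a glycoprotein of lysosome-rich macrophages, was at 3017 FPKM with a difference of −0.09, and Ctsd, the lysosomal protease cathepsin D, was at 1409 FPKM with −0.09. No call was made on any of these named genes (adjusted p = 0.997 for each in this comparison).

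Genes with the most similar profiles were sought among 5374 genes of at least 10 FPKM, as the smallest root-mean-square difference of centred log2(FPKM + 1) values over the 6 separate profiles. The nearest were Gpbp1 and Serinc1 for Vps35 (0.005 and 0.006), Glmp and AI413582 for Atp13a2 (0.010 and 0.013), Ppib and Mrpl34 for Park7 (both 0.011), and Slc37a2 and Mpc2 for Htra2 (both about 0.009 to 0.010). Pum2 and Bbx were nearest to Lrrk2 (0.012 and 0.014), Camk1 and Tpp1 to Pink1 (both 0.015) and Ccdc43 and Nrp1 to Fbxo7 (0.026 and 0.028). All 6 values of each gene share the scaling of their profile.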

How the data were processed

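Bulk RNA-seq of sorted midbrain microglia was deposited as 1 table of 12 columns, 3 for each of 4 groups, mapped to samples by column title. The submitters' processing notes name CASAVA 1.5, Bowtie 0.12.7, TopHat, Cufflinks and the build mm9, without saying which did what. The unit is stated nowhere, and the deposited values were taken as FPKM because Cufflinks writes it. The sources used here give neither read depth nor annotation. 1 row with text in place of a number was left out, and rows were summed per symbol after the trailing number was removed. limma 3.58.1 in R 4.3.3, with a mean-variance trend, was fitted to log2(FPKM + 1) of genes that reached 1 FPKM in 3 or more of the 6 separate profiles, with Benjamini-Hochberg adjustment across all genes and a threshold of 0.05. The fold change on this scale understates the change of low genes. KO against WT used 6 profiles (4 residual degrees of freedom), and the other comparisons used 5 (1 residual degree of freedom). The 7 genes reported passed the filter, and 1 further listed gene is not reported here. The procedure was tested on simulated data.

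The members and gene lists were chosen with earlier results of these data known. Of each list, up to 4 called genes were to be named, or the 2 of highest mean where none was called, and the 2 most similar genes were named for each member. Promoter motifs and the fit of single rows were chosen after values had been seen. Alternatives were pseudocounts of 0.1 and 0.5, no filter and a filter at 5 FPKM, TMM and quantile rescaling, the highest row per symbol, all 12 columns, genes off the column relations left out, other placements of KO PBS 2, a replicate block and profiles left out.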

Additional observations from a re-analysis of the deposited data

How the results depend on the processing

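The count of 0 members called held in each of the 6 comparisons under every alternative fitted except the use of all 12 columns as libraries, which called 2 members for MPTP in WT, 2 for KO under PBS and 1 for KO under MPTP, and 22 of the pathway genes for KO over all columns against 0 with separate profiles. Of 674 member values recomputed, 70 had the other sign, all without a call in either fit, and 5 were called, all with 12 columns. Outside that setting the smallest adjusted p of a member was 0.37 (limma). Counts over all genes moved more: from 27 to between 0 and 43 for MPTP in WT, from 31 to between 0 and 51 for MPTP in KO, from 24 to between 0 and 39 for KO under PBS, from 11 to between 0 and 41 for KO under MPTP, from 8 to between 0 and 30 for the interaction and from 4 to between 0 and 71 for KO over all profiles. With 12 columns these were 2149, 21, 1321, 1539, 127 and 1023. With the filter at 5 FPKM, 5 members were tested. The counts of 0 members with an unadjusted p under 0.05 did not hold under every alternative with separate profiles. They changed in some fits of KO under PBS and of MPTP in KO. For KO over all profiles, 1 member had such a p (limma) with the highest row per symbol, as had 525 of 10231 genes. Without KO MPTP 2 it was 1 member, and 1114 of 10634 genes.

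The replicate numbers share only a number in the labels. Across 10634 genes the difference between profiles 1 and 2 of WT PBS and that of KO PBS had a Pearson r of 0.227, and genes are not independent replicates. With the replicate block, 0 members were called in each comparison, and 71 genes were called for KO over all profiles against 4 without it. The block in the other comparisons needed KO PBS 2 counted as KO PBS. The comparisons that use WT MPTP or KO MPTP have 1 separate profile there, so leaving it out gives no value. For KO over all profiles, leaving out 1 profile at a time gave 0 members called each time. The depth is unknown, which leaves no counting interval for the low values of Lrrk2.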

Other observations

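The partners of these genes spanned a wide range of levels in the 6 separate profiles, and the genes in this paragraph were picked after their values were seen. Of the mitophagy receptors and their regulators, Sqstm1 was at 95.7 ± 4.09 FPKM (mean ± SD, n = 6), Nbr1 at 35.9 ± 1.62, Tbk1 at 15.6 ± 0.61 and Optn at 10.4 ± 0.68 FPKM. The mitofusin genes Mfn2 and Mfn1, whose products sit in the mitochondrial outer membrane, were at 12.8 ± 0.63 and 7.23 ± 0.72 FPKM, and Usp30, a mitochondrial deubiquitinase that opposes mitophagy, was at 7.05 ± 0.39 FPKM. Among the retromer subunits, Vps29 was at 60.01 ± 2.80, Vps26a at 33.8 ± 1.31 and Vps26b at 5.85 ± 0.19 FPKM, beside Vps35 at 101.1 FPKM. The retromer cargo receptors Igf2r and Sorl1 were at 25.4 ± 1.00 and 12.1 ± 0.60 FPKM, and Sort1 at 0.38 ± 0.05 FPKM. Lrrk1, the paralog of Lrrk2, was at 3.39 ± 0.14 FPKM, close to Lrrk2 at 2.83 ± 0.19. Of the LRRK2 substrates, Rab10 was at 41.1 ± 2.41, Rab8a at 32.4 ± 1.88 and Rab12 at 17.1 ± 0.72 FPKM, and Rab3a, which is best known from neurons, at 1.39 ± 0.20 FPKM.

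The genes in this paragraph were also picked after their values were seen. Among further genes linked to Parkinson disease, the lysosomal protease gene Ctsb was at 350 ± 13.1 FPKM, while Dnajc6 and Sncaip were at 0.10 ± 0.06 and 0.05 ± 0.02 FPKM, and Stk39 and Rab39b were listed at 0 in all 6. Slc11a2, an iron transporter carried by retromer, reached 13.3 FPKM in KO PBS 1, where the 5 other separate profiles ranged from 10.3 to 11.3 FPKM. Its difference between KO PBS and WT PBS was 0.27 ± 0.09 (log2 scale, SE), the highest of the 138 pathway genes tested, and was not called. KO PBS 2, left out of that fit, was at 10.9 FPKM for Slc11a2. Cycs, which encodes cytochrome c, stood at 10.6 and 11.1 FPKM in the WT PBS pair and at 13.3 in WT MPTP 1, and at 9.61 FPKM in KO PBS 1 and 11.6 in KO MPTP 2. It differed with MPTP by 0.28 ± 0.09 in WT and by 0.25 ± 0.10 in KO (log2 scale, SE), and neither was called. The WT value was the highest of the 138 pathway genes tested for MPTP in WT. KO PBS 2 held 12.4 FPKM of Cycs, above KO MPTP 2.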
